A study of Mustela putorius furo and Mus musculus with 4 samples.

Results

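Expression of 10 genes of the response to tumor necrosis factor (TNF) and interleukin-1 (IL-1) was examined in cultured ferret and mouse astrocytes. They form a list set by gene symbol, which was drawn up with earlier results of these data known. The list holds 3 receptors (*Tnfrsf1a*, *Tnfrsf1b* and *Il1r1*), 4 genes of NF-kB subunits (*Nfkb1*, *Nfkb2*, *Rela* and *Relb*), 2 feedback inhibitors (*Nfkbia* and *Tnfaip3*) and the adhesion molecule gene *Vcam1*. All 10 symbols had values in mouse astrocytes and 9 of them in ferret astrocytes, out of 13373 symbols with values in both species. None of the 10 had several values in a species. *Relb* had no value under its symbol in the ferret data.

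The study compared 2 ferret libraries with 2 mouse libraries. The ferret cultures came from the cerebral cortex of pups at P1 (normally pigmented sable ferrets) and the mouse cultures from the cortex of wild-type ICR pups at P1 to P3. No genetic change and no added cytokine is given for either group. Both were grown as mixed glia in serum for 14 days, shaken to remove loosely attached cells and replated. After replating they were kept in serum until day 3 and then without serum for 4 days before RNA was taken. The serum-free medium held heparin-binding EGF-like growth factor. One ferret pup filled 4 flasks, whereas 4 mouse pups were combined in a single flask, so the mouse cultures mixed several animals. Each species had duplicate libraries, and no source used here says that these were independent cultures. The p-values below therefore measure the spread between these libraries, which may be technical.

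In the resting cell, dimers of NF-kB proteins are held in the cytoplasm by inhibitors of the IkB family. Binding of TNF or IL-1 to its receptor activates a kinase complex that marks the inhibitor for destruction, and the freed dimer enters the nucleus and turns on its target genes. *Nfkbia* and *Tnfaip3* are among these targets and their proteins shut the signal off again. A slower, non-canonical branch works through the products of *Nfkb2* and *Relb*. Astrocytes use the pathway to make chemokines and adhesion molecules in inflamed brain, and VCAM1 is one of the surface proteins to which leukocytes attach.

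Expression was given as FPKM, fragment number scaled to exon length and to the mapped fragments of the library, which the authors computed for each species on its own gene models. The authors list read counts separately with their paper, and these were not used here, so no absolute depth or counting interval is given. From the lowest FPKM values, ferret replicate 1 had 1.17 times the depth of replicate 2 and mouse replicate 1 had 0.83 times that of replicate 2. Markers of astrocytes were present in all libraries but at unequal levels. *Gfap*, the main intermediate filament gene of astrocytes, had 1429 to 1546 FPKM across the 4 libraries and the glutamate transporter gene *Slc1a3* had 76.6 to 185. Of the 12 astrocyte markers listed, 8 were called lower in ferret cultures by the criterion given next, beside 30.1% of all tested genes. Among these the glutamate transporter gene *Slc1a2* was near 0 in ferret, at 0.133 and 0.178 FPKM against 47.1 and 51.8. The apolipoprotein gene *Apoe* had 11.8 and 12.3 against 3035 and 3315, *Aldh1l1* 10.1 and 9.60 against 81.2 and 84.3, and the water channel gene *Aqp4* 24.8 and 21.8 against 202 and 210. Their part in the results below was not tested. Values were compared as log2(FPKM + 1) with limma over 10204 genes with a mean of at least 1 FPKM in either species, and all 9 genes with values in both species passed this filter. *Tnfaip3* and *Vcam1* passed through the mouse libraries only, so their direction was set by the filter. The same held for the marker *Slc1a2*. On this scale the change of a gene with low FPKM is understated. Adjusted p (limma, Benjamini-Hochberg) refers to all of these genes. A call required a value under 0.05 together with a difference, ferret minus mouse, beyond 1 on the log2 scale. Over all tested genes the median difference was -0.35, because the mouse values are larger in sum, and this offset vanished to -0.01 when the libraries were rescaled to an equal sum over the shared symbols. Both versions are therefore given for the calls of the 9 genes and, where stated, for other lists. For a single gene, an exact two-sided permutation test of 2 libraries against 2 cannot give a p below 0.333. Species, gene models and culture history cannot be told apart in this design.

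Of the 9 genes, 6 were called lower and 0 higher in ferret astrocytes, beside 30.1% of all tested genes called lower and 13.1% called higher. The called genes were *Vcam1*, *Nfkb1*, *Tnfaip3*, *Nfkbia*, *Tnfrsf1a* and *Il1r1*, of which 4 had passed the filter in both species. By the adjusted p alone, 8 of the 9 were lower and 0 higher, beside 56.2% of all genes lower and 32.4% higher. After rescaling to an equal sum, 3 of the 9 were called lower and 0 higher, namely *Vcam1*, *Nfkb1* and *Tnfaip3*, beside 21.7% of all genes called lower and 19.1% called higher. These 3 were also the calls after rescaling to 1000000, beside 24.9% of all genes lower and 21.5% higher, and after quantile normalization, beside 20.4% lower and 20.4% higher. Of these 3 genes, only *Nfkb1* had passed the filter in both species. By the adjusted p alone 8 were lower and *Tnfrsf1b* was higher under each of these scalings. All genes beside them were 44.5% lower and 43.8% higher with an equal sum, 44.4% and 43.7% with a sum of 1000000, and 42.8% and 45.6% with quantile normalization. The median log2 difference of the 9 genes was -1.13 as deposited and -0.76 after rescaling. In both cases it lay below the median of all genes, by a margin that was not tested. In 8 of the 9 genes both ferret libraries lay below both mouse libraries, beside 59.0% of all tested genes. The opposite held for 0 of the 9 and for 35.1% of all tested genes. Each count of lower genes among the 9 includes *Vcam1* and *Tnfaip3*, whose direction the filter had set. Fewer cells of one type and less RNA per cell cannot be distinguished in RNA from whole cultures.

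**Figure D1:**
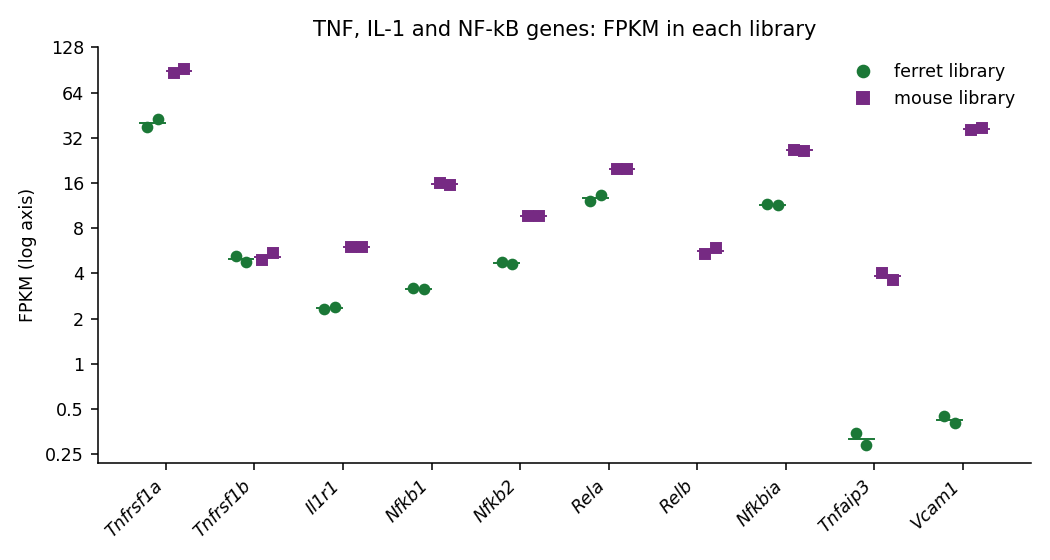
FPKM of each gene (x axis) in each library on a log axis, with circles for the 2 ferret libraries, squares for the 2 mouse libraries and a line at the mean on the log scale. Mouse squares lie above ferret circles for 8 genes, *Tnfrsf1b* overlaps near 5 FPKM, *Relb* has mouse values only, and the widest gap is that of *Vcam1*.

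Among the receptors, the 2 TNF receptor genes behaved differently. *Tnfrsf1a* encodes the broadly expressed TNF receptor with a death domain (mouse chromosome 6 of GRCm38, 125349362 to 125362484, plus strand, 11 exonic regions). It was the most strongly expressed of the 10 genes in both species, with 37.7 and 42.7 FPKM in ferret cultures and 86.6 and 91.3 in mouse cultures. Both ferret values were thus less than the lower mouse value, and the mean was 2.21 times higher in mouse astrocytes. On the log2 scale it differed by -1.13 (SE 0.071, limma adjusted p = 1.70e-07). After rescaling to an equal sum it was -0.74 and no longer called, with a limma adjusted p of 1.13e-05.

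*Tnfrsf1b* encodes the second TNF receptor, which lacks a death domain and is prominent on immune and endothelial cells (chromosome 4, 145213463 to 145246870, minus strand, 10 exonic regions). Its FPKM was 5.20 and 4.78 in ferret and 4.91 and 5.46 in mouse astrocytes, so the libraries of the 2 species overlapped. The log2 difference of -0.05 had a 95% interval from -0.23 to 0.14, which leaves out differences as large as that of *Tnfrsf1a* (limma adjusted p = 0.600). This gene was the only one of the 9 to change direction with scaling, and stood 0.28 higher in ferret astrocytes after rescaling (limma adjusted p = 0.014). The ratio of *Tnfrsf1a* to *Tnfrsf1b* within a library is free of such scaling. It was 7.25 and 8.94 in ferret against 17.7 and 16.7 in mouse libraries, so the FPKM of the first receptor per unit of the second was lower in both ferret libraries. The gene models of each species still enter this ratio.

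*Il1r1* encodes the signaling receptor for IL-1 (chromosome 1, 40225080 to 40317257, plus strand, 15 exonic regions). It was weakly expressed in all cultures, with 2.32 and 2.38 FPKM in ferret and 5.99 and 5.99 in mouse libraries. The duplicates were nearly identical, and the mean was 2.55 times higher in mouse astrocytes. The log2 difference was -1.06 (SE 0.073, limma adjusted p = 3.36e-07). It was just past the limit of 1, and became -0.76 after rescaling (limma adjusted p = 3.31e-05). Its coreceptor gene *Il1rap* was lower in ferret astrocytes by nearly the same factor, with 3.37 and 3.24 FPKM against 8.36 and 9.59. Per unit of *Il1r1*, *Il1rap* stood at 1.45 and 1.36 in ferret and at 1.39 and 1.60 in mouse libraries, which overlapped.

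The genes of the NF-kB subunits were not shifted evenly. *Rela* encodes the main transactivating subunit of the canonical pathway (chromosome 19, 5637483 to 5648130, plus strand, 13 exonic regions). It had 12.1 and 13.2 FPKM in ferret and 19.7 and 19.9 in mouse libraries. Its log2 difference was -0.61 (SE 0.068, limma adjusted p = 1.36e-05), which did not reach the limit for a call, and -0.24 after rescaling. Among all tested genes 41.5% had a difference as low or lower, so *Rela* lay near the middle of the distribution.

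*Nfkb1* encodes the precursor of the usual partner of the *Rela* product (chromosome 3, 135584655 to 135691547, minus strand, 26 exonic regions). It had 3.19 and 3.13 FPKM in ferret and 15.96 and 15.6 in mouse libraries, and the mean was 4.99 times higher in mouse astrocytes. The log2 difference was -2.01 (SE 0.069, limma adjusted p = 2.22e-09), and -1.68 after rescaling, where it stayed called. Its rank tells the same without any scaling. Of the shared symbols, 43.4% and 43.1% had an FPKM at or below that of *Nfkb1* in the ferret libraries, compared with 70.5% and 69.6% in the mouse libraries. Relative to *Rela* in the same library, *Nfkb1* stood at 0.264 and 0.236 in ferret and at 0.809 and 0.785 in mouse astrocytes. The FPKM ratio of these partners thus differed between the species, but their gene models differ too and do not cancel in it.

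*Nfkb2*, the precursor gene of the non-canonical branch (chromosome 19, 46304320 to 46312385, plus strand, 20 exonic regions), had 4.77 and 4.65 FPKM in ferret and 9.64 and 9.63 in mouse libraries. The fitted log2 difference was -0.90 (SE 0.070, limma adjusted p = 8.43e-07), short of a call, and -0.56 after rescaling. The order of the precursor genes by FPKM was opposite in the species, whose gene models differ. *Nfkb1* stood at 0.669 and 0.673 of *Nfkb2* in ferret and at 1.66 and 1.62 of it in mouse libraries. *Relb*, whose product pairs with that of *Nfkb2* (chromosome 7, 19606217 to 19629438, minus strand, 15 exonic regions), had 5.34 and 5.92 FPKM in the mouse libraries. It was not compared, because no ferret value carries its symbol. A gene named RELB is annotated in the ferret RefSeq assembly ASM1176430v1.1, another build than that of the authors, so the missing symbol does not show that the ferret lacks the gene.

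**Figure D2:**
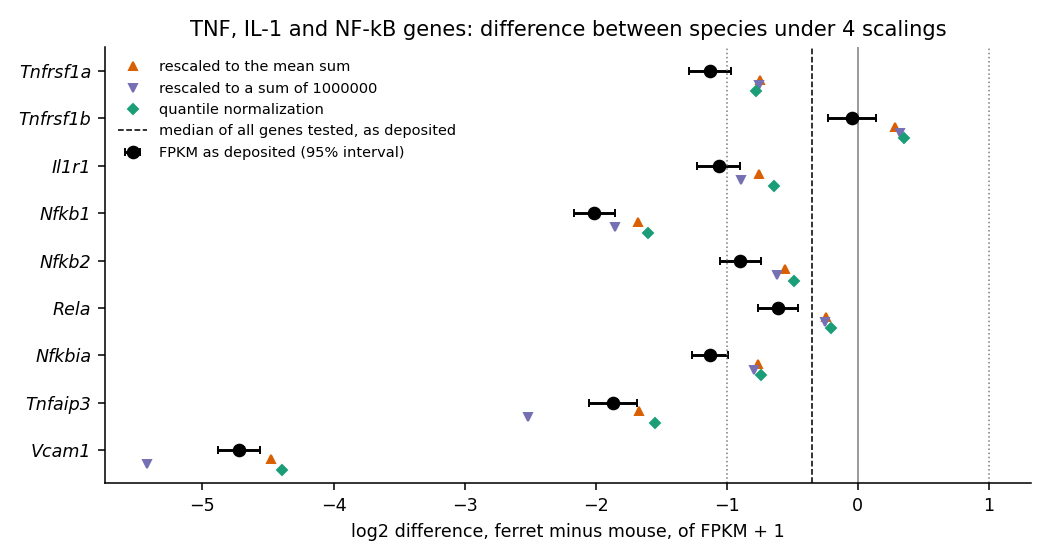
Log2 difference between ferret and mouse astrocytes (x axis) for the 9 genes, with black points and 95% intervals from limma on FPKM as deposited and colored symbols for 3 other scalings. Dotted lines mark -1 and 1, and the dashed line marks the median of all genes tested at -0.35. Only *Nfkb1*, *Tnfaip3* and *Vcam1* lie beyond -1 under all 4 scalings, and *Tnfrsf1b* crosses 0.

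Both feedback inhibitors were lower in ferret astrocytes, by unequal amounts. *Nfkbia* encodes IkB alpha, which holds NF-kB in the cytoplasm (chromosome 12, 55489410 to 55492647, minus strand, 6 exonic regions). It had 11.6 and 11.4 FPKM in ferret and 26.5 and 26.2 in mouse libraries, a mean 2.29 times higher in mouse astrocytes. The log2 difference was -1.13 (SE 0.061, limma adjusted p = 5.40e-08) and -0.76 after rescaling, which ended the call. Per unit of *Rela*, *Nfkbia* stood at 0.955 and 0.863 in ferret and at 1.34 and 1.32 in mouse libraries, without overlap.

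*Tnfaip3* encodes A20, a ubiquitin-editing enzyme that ends TNF and IL-1 signals (chromosome 10, 19000910 to 19015657, minus strand, 9 exonic regions). It was the lowest of the genes in both species, with 0.347 and 0.289 FPKM in ferret and 4.02 and 3.62 in mouse libraries. The mean was 12.0 times higher in mouse astrocytes. Its log2 difference came to -1.87 (SE 0.081, limma adjusted p = 1.10e-08), and -1.67 after rescaling, still called. As the ferret values are far below the added 1, this figure understates the ratio, and with a pseudocount of 0.1 it was -3.23. *Nfkbia* exceeded *Tnfaip3* by 33.3 and 39.4 times in ferret and by 6.59 and 7.22 times in mouse libraries.

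The adhesion molecule gene *Vcam1* differed most (chromosome 3, 116109949 to 116129688, minus strand, 10 exonic regions). Ferret replicates had 0.447 and 0.401 FPKM, against 36.2 and 37.0 in the mouse replicates, a mean 86.3 times higher in mouse astrocytes. As a log2 difference this was -4.72 (SE 0.071, limma adjusted p = 1.94e-11), and 0.617% of all tested genes had a difference as low or lower. It ranged from -6.13 with a pseudocount of 0.1 to -4.39 after quantile normalization. In the mouse libraries *Vcam1* stood second among the 10 genes, above *Nfkbia*, with 86.6% of shared symbols at or below it in each. In the ferret libraries 26.3% and 25.9% of the symbols were at or below it, and only *Tnfaip3* was lower among the 9.

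*Vcam1* and *Tnfrsf1b* are also expressed by cells other than astrocytes, and markers of several such cells moved with species. Of 14 microglial markers listed, 13 had values in both species and all 13 were called lower in ferret astrocytes, with a summed FPKM of 6.65 to 7.19 in ferret and 748 to 772 in mouse libraries. Among them *Csf1r*, the receptor gene that microglia depend on, had 0.233 and 0.296 FPKM against 33.6 and 30.6, and *Aif1* had 0.050 and 0.047 against 12.6 and 10.6, while *Cx3cr1* is listed at 0 in both ferret libraries. All 10 meningeal fibroblast markers were called lower as well, with sums of 111 to 126 FPKM in ferret and 1719 to 1729 in mouse libraries. The collagen gene *Col1a1* stood at 32.2 and 28.8 against 164 and 156, the proteoglycan gene *Dcn* at 1.92 and 1.43 against 40.7 and 41.99, and *Mgp* is listed at 0 in ferret. Markers with a ferret mean under 1 FPKM, such as *Csf1r*, *Aif1*, *Cx3cr1* and *Mgp*, had passed the filter through the mouse libraries only. The filter set the direction of such markers, and the counts of 13 and 10 include them. The part of microglia or fibroblasts in the results for the 9 genes was not tested. Of the endothelial markers, *Pecam1* is listed at 0 in ferret and stood at 0.041 and 0.031 in mouse libraries, and *Cldn5* stood at 0.058 and 0 in ferret and is listed at 0 in mouse. *Cdh5*, in contrast, is listed at 0 in ferret and had 21.96 and 22.5 FPKM in mouse libraries. The 8 endothelial markers summed to 0.531 to 0.628 FPKM in ferret and 25.9 to 26.2 in mouse libraries. The remaining lists moved less evenly. The astrocyte markers, with 8 called lower, had 1 called higher, *S100b* (summed FPKM 4774 to 4959 in ferret and 10435 to 11226 in mouse libraries). Of 4 pericyte markers tested, 2 were called lower and 1 higher (18.5 to 19.3 against 33.03 to 34.95). No marker was called lower among 7 of the oligodendrocyte lineage, where 3 were called higher (89.0 to 95.8 against 21.3 to 23.4), or among 4 of neurons, where 2 were called higher (28.8 to 29.3 against 34.2 to 35.5). The oligodendrocyte lineage gene *Sox10* had 26.3 and 30.9 FPKM in ferret and 0.231 and 0.304 in mouse libraries, and the myelin gene *Mbp* had 28.5 and 33.1 against 2.95 and 1.78. *Sox10* had passed the filter through the ferret libraries only, which set its direction. Beside these marker counts, 30.1% of all tested genes were called lower and 13.1% higher as deposited, and 21.7% and 19.1% after rescaling to an equal sum. After this rescaling 6 astrocyte markers were called lower and 2 higher, and 4 oligodendrocyte lineage markers higher. The microglial, fibroblast, pericyte and neuron counts stayed the same. The part of these cell types was not tested.

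The levels per length also fell in another order. In ferret astrocytes it ran from *Tnfrsf1a* at 40.2 ± 3.54 FPKM (SD, n = 2) through *Rela* at 12.7 ± 0.797 (SD, n = 2), *Nfkbia*, *Tnfrsf1b*, *Nfkb2*, *Nfkb1*, *Il1r1* and *Vcam1* to *Tnfaip3* at 0.318 ± 0.041 (SD, n = 2). *Tnfrsf1b* at 4.99 ± 0.296 (SD, n = 2) and *Nfkb2* at 4.71 ± 0.087 (SD, n = 2) differed by less than their summed SD. In mouse astrocytes the order was *Tnfrsf1a* at 89.0 ± 3.34 (SD, n = 2), *Vcam1* at 36.6 ± 0.549 (SD, n = 2), *Nfkbia*, *Rela*, *Nfkb1*, *Nfkb2*, *Il1r1*, *Relb*, *Tnfrsf1b* and *Tnfaip3* at 3.82 ± 0.277 (SD, n = 2). There *Il1r1* and *Relb*, and *Relb* and *Tnfrsf1b*, lay within their summed SD. All other neighbors were separated by more than that.

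**Figure D3:**
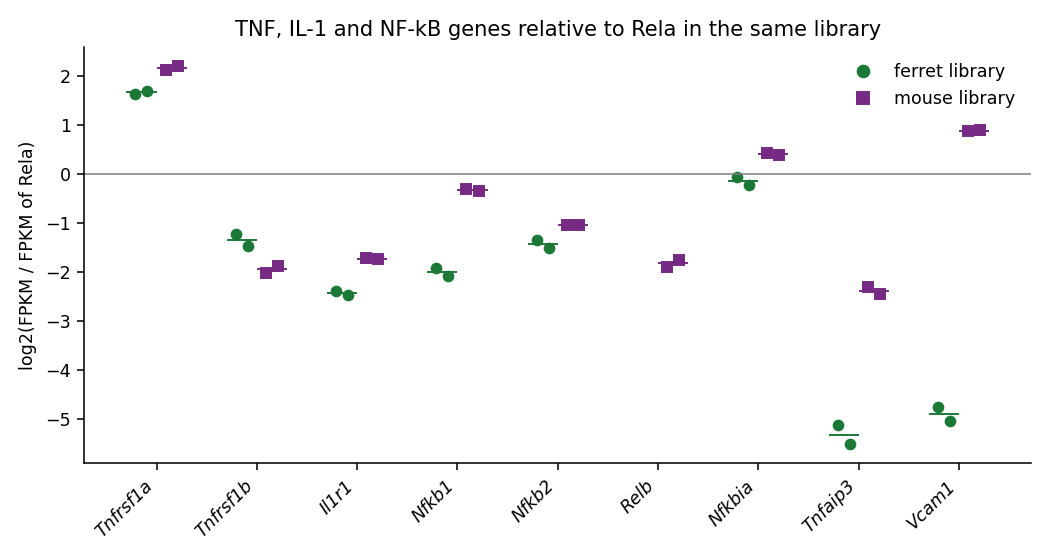
Level of each gene relative to *Rela* in the same library (y axis, log2 of the ratio of FPKM), which a scaling factor between libraries cannot change, with circles for ferret and squares for mouse libraries. *Tnfrsf1b* is the only gene whose ferret circles lie above its mouse squares, at -1.22 and -1.47 against -2.01 and -1.86, and *Relb* has mouse values only.

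A wider list of 96 other genes of the pathway was examined by role. Of these, 85 had values in both species and 66 passed the filter on low values. As deposited, 28 of the 66 were called lower and 11 higher in ferret astrocytes, so that 28.2% of the called genes were higher. After rescaling to an equal sum 21 were lower and 15 higher (41.7%). The same change took all genes from 30.3% to 46.9%. Of all tested genes, 30.1% were called lower and 13.1% higher as deposited, and 21.7% and 19.1% after rescaling. No list was tested against these shares. The median log2 difference of the 66 genes was -0.85 as deposited and -0.50 after rescaling. Of the 28 called lower, 14 had passed the filter through the mouse libraries only, and of the 11 called higher 2 had passed through the ferret libraries only, so for these the filter set the direction. The 11 genes without a ferret value under their symbol, among them *Il1b*, *Sod2* and *Cxcl1*, were not compared, and for 6 of them the ferret RefSeq assembly lists a gene of that name.

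Of 12 genes of ligands and decoys, 4 were tested and called lower in ferret astrocytes. All 4 had passed the filter through the mouse libraries only, so the count says nothing of the direction of the list. Among genes below the filter, *Tnfsf13b*, which encodes the B cell factor BAFF, had 0.687 and 0.655 FPKM in ferret and 0.195 and 0.205 in mouse libraries. *Ltb* overlapped, at 0.108 and 0.102 against 0.115 and 0.032, and *Cd40lg* had 0.022 and 0.011 in ferret and is listed at 0 in mouse. *Tnf* had 0 and 0.022 FPKM in ferret and 1.64 and 1.68 in mouse libraries. *Il1a* stood at 0.145 and 0.136 against 0.900 and 0.967 and was below the filter, and *Il1b* had 0.126 and 0.166 FPKM in the mouse libraries only. *Il1rn*, the gene of the IL-1 receptor antagonist, is listed at 0 in both ferret libraries and had 4.82 and 4.41 FPKM in mouse libraries. The alarmin genes had the highest mouse levels of the 4 tested. *Il18* had 0.807 and 0.552 FPKM against 16.4 and 17.6, and *Il33* had 0.757 and 0.939 against 12.8 and 12.3.

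Of 12 other receptor genes, 4 were tested and 3 were called lower, beside 30.1% of all tested genes. *Ltbr*, which encodes the lymphotoxin beta receptor of the non-canonical branch, had 5.85 and 5.20 FPKM in ferret and 25.8 and 25.5 in mouse libraries, a log2 difference of -2.03 (limma adjusted p = 2.87e-09). *Tnfrsf11a*, the receptor gene for RANK ligand, had 0.091 and 0.149 against 1.66 and 1.45. It had passed the filter through the mouse libraries only, so the filter set its direction. After rescaling to an equal sum 2 of the 4 were called lower, beside 21.7% of all genes, and *Il1rap*, at -0.88, was not. Quantile normalization also ended the call of *Tnfrsf11a*, at -0.94.

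The adaptors and ubiquitin ligases that carry the signal from the receptor did not share a direction. Of 14 tested, 3 were called higher and 3 lower, beside 13.1% of all tested genes higher and 30.1% lower. The median log2 difference of the 14 was 0.03. After rescaling to an equal sum 4 were called higher and 2 lower, with a median of 0.39. All genes beside them were 19.1% higher and 21.7% lower. With quantile normalization 4 were called higher and 1 lower, beside 20.4% of all genes in each direction. *Birc3*, which encodes the ubiquitin ligase cIAP2, was the strongest, with 58.4 and 60.8 FPKM in ferret and 4.48 and 3.53 in mouse libraries, 14.9 times higher in ferret astrocytes. The log2 difference was 3.60 (SE 0.090, limma adjusted p = 2.86e-10). Its relative *Birc2* stood at 27.4 and 26.6 against 13.4 and 11.2, and *Fadd*, the death domain adaptor gene, at 12.2 and 13.5 against 3.05 and 2.60. Lower in ferret astrocytes were *Sharpin*, a subunit of the linear ubiquitin ligase, at 7.93 and 8.96 against 24.6 and 25.96, *Traf5* at 0.151 and 0.249 against 1.82 and 1.75, and *Ripk1*, the kinase gene at the TNF receptor, at 5.39 and 6.38 against 15.1 and 14.6. The call of *Ripk1* was lost after rescaling, at -0.85, and that of *Traf5* after quantile normalization, at -0.95. *Traf5* had passed the filter through the mouse libraries only, which set its direction.

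Of the 14 kinases and kinase-associated genes 5 were called lower and 0 higher, beside 30.1% of all tested genes lower and 13.1% higher. The median log2 difference of the 14 was -0.74. After rescaling 4 were lower and 2 higher, beside 21.7% of all genes lower and 19.1% higher. *Irak2*, a kinase gene of the IL-1 receptor complex, had 0.795 and 1.14 FPKM in ferret and 9.56 and 9.65 in mouse libraries, a log2 difference of -2.44 (limma adjusted p = 4.99e-09). *Map3k8* stood at 0.380 and 0.376 against 5.20 and 6.03. *Ikbkg*, which encodes the regulatory subunit of the IkB kinase complex, stood at 5.81 and 6.72 against 25.1 and 26.3. All 3 kept their calls after rescaling, but *Irak2* and *Map3k8* had passed the filter through the mouse libraries only, which set their direction.

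Among the other REL and IkB proteins and inhibitors, 3 of 12 were called higher and 4 lower, beside 13.1% of all tested genes higher and 30.1% lower. After rescaling to an equal sum 3 were higher and 3 lower, beside 19.1% of all genes higher and 21.7% lower. The IkB genes went in opposite directions. *Nfkbib*, which encodes IkB beta, had 31.5 and 33.6 FPKM in ferret and 10.3 and 11.1 in mouse libraries, a log2 difference of 1.52 (SE 0.068, limma adjusted p = 1.34e-08). *Nfkbie*, which encodes IkB epsilon, stood at 5.44 and 6.99 against 1.91 and 2.01. *Bcl3*, a nuclear IkB protein gene, stood at 15.7 and 17.8 against 5.34 and 6.39. All 3 were called higher under each of the 4 scalings. As a result *Nfkbib* stood at 2.73 and 2.95 times *Nfkbia* in ferret and at 0.390 and 0.424 times *Nfkbia* in mouse libraries. Lower in ferret astrocytes were *Commd1*, at 11.5 and 12.2 FPKM against 60.4 and 61.4, *Nfkbiz*, at 0.838 and 0.685 against 4.65 and 4.73, and *Rel*, the gene of the c-Rel subunit, at 0.295 and 0.259 against 2.26 and 2.22. Of these, *Nfkbiz* and *Rel* had passed the filter through the mouse libraries only, which set their direction.

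**Figure D4:**
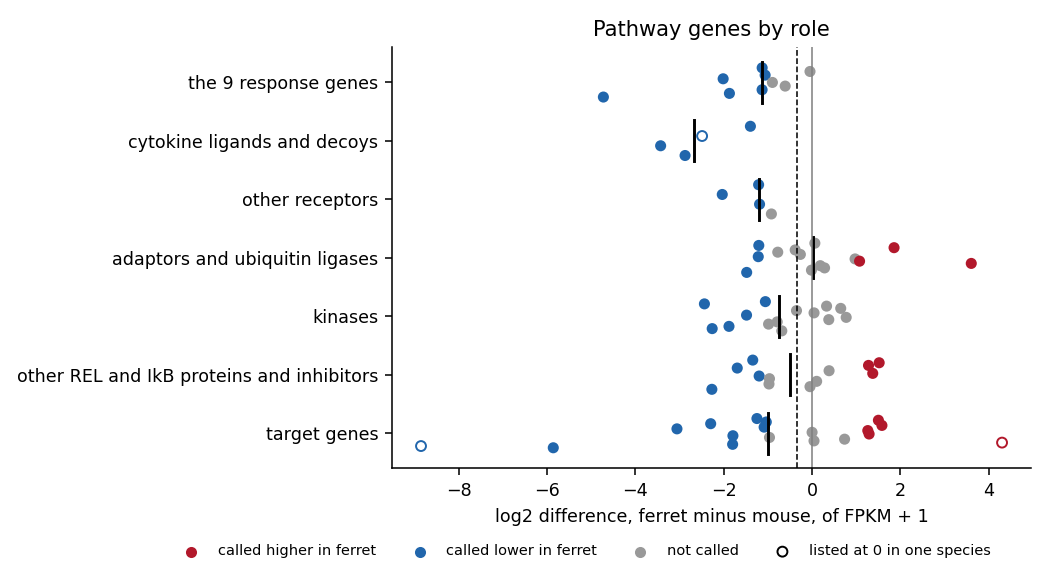
Log2 difference between ferret and mouse astrocytes (x axis) for each tested gene by role, colored by call, with open circles for genes listed at 0 in one species, whose position depends on the pseudocount. Black bars mark the median of a role and the dashed line the median of all genes at -0.35, and calls in both directions appear among adaptors, REL and IkB proteins and target genes.

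Genes known as targets of NF-kB were called in both directions. Of 18 tested, 9 were called lower and 5 higher in ferret astrocytes as deposited, and 6 lower and 6 higher after rescaling. Without *Junb*, listed at 0 in both mouse libraries, the count was 9 lower and 4 higher as deposited and 6 lower and 5 higher after rescaling. Of all tested genes, 30.1% were called lower and 13.1% higher as deposited, and 21.7% and 19.1% after rescaling. Of the 9 called lower, 4 had passed the filter through the mouse libraries only, and of the 5 called higher 2 through the ferret libraries only. *Icam1*, an adhesion molecule gene like *Vcam1*, had 11.0 and 11.0 FPKM in ferret and 27.5 and 27.7 in mouse libraries. Its log2 difference was -1.25 (SE 0.061, limma adjusted p = 2.56e-08), far from the -4.72 of *Vcam1*, and after rescaling it was -0.88 and not called. *Ptgs2*, which encodes the inducible cyclooxygenase, stood at 0.020 and 0.008 against 7.52 and 7.36, and the complement gene *C3* at 0.072 and 0.046 against 61.3 and 59.5. *Lcn2* is listed at 0 in both ferret libraries and had 459 and 462 FPKM in mouse libraries. *C3* is also made by microglia and fibroblasts, whose markers were lower in ferret astrocytes as given above. The part of these cells in the difference of *C3* was not tested.

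Higher in ferret astrocytes was the chemokine gene *Ccl2*, with 40.3 and 37.8 FPKM against 14.9 and 11.5. Its log2 difference was 1.502 (SE 0.102, limma adjusted p = 3.12e-07). The ferret RefSeq assembly lists no gene named *Ccl2* or *Il1rap*, whose ferret values rest on the symbols in the authors' gene models. The cytokine gene *Lif* stood at 7.76 and 6.09 against 2.00 and 1.31, a log2 difference of 1.58 (SE 0.135, limma adjusted p = 1.78e-06). *Junb* had 18.2 and 19.2 FPKM in ferret and is listed at 0 in both mouse libraries. An exact 0 in FPKM can be a failed estimate, and *Junb* is an immediate early gene that most cultured cells transcribe, so no fold is given. The same limit holds for genes listed at 0 in both ferret libraries, such as *Lcn2*, *Il1rn*, *Cx3cr1*, *Mgp* and *Cdh5*. The cytokine gene *Il6* was low everywhere, at 0.068 and 0.080 FPKM in ferret and 0.548 and 0.416 in mouse libraries, and was not tested.

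**Figure D5:**
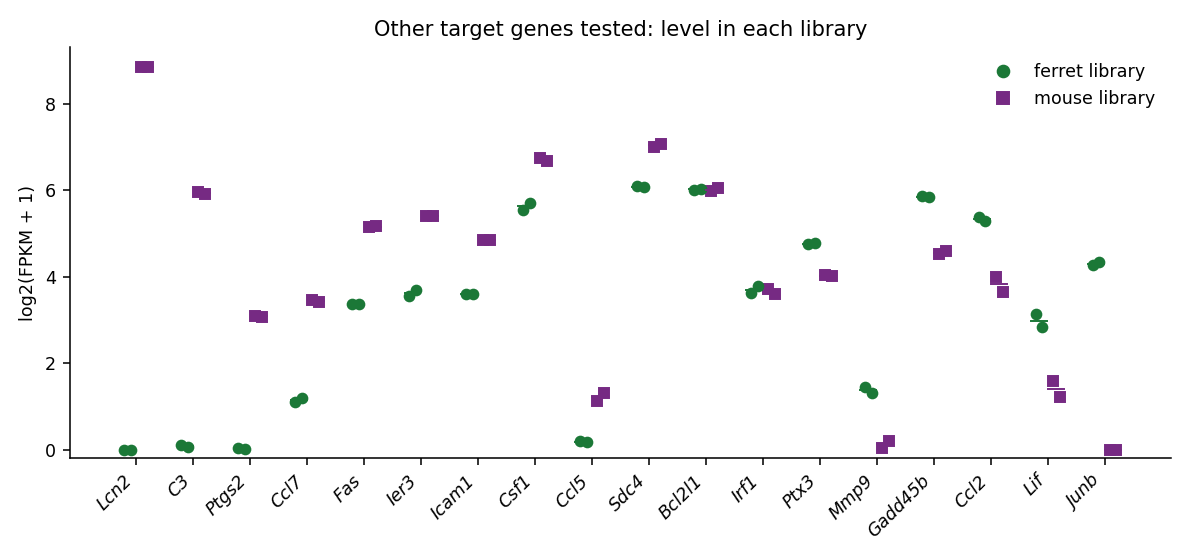
Level of the 18 tested target genes (x axis, ordered by their log2 difference) in each library as log2(FPKM + 1), with circles for ferret and squares for mouse libraries. Genes on the left are higher in mouse libraries and genes on the right in ferret libraries, with *Bcl2l1* and *Irf1* in between.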

How the data were processed

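Messenger RNA of cultured astrocytes was sequenced in 2 ferret and 2 mouse libraries, which were stranded and polyA-selected. With STAR 2.7.0f, the authors mapped ferret reads to the ferret and mouse reads to the mouse genome of Ensembl (release 99), and they deposited FPKM per gene and library from Cufflinks 2.2.1, normalized to mapped fragments and exon length. The authors' separate table of read counts was at hand only in part and was not used here, so absolute depth is not given. Symbols were joined without regard to case (13373 shared), and where a symbol had several values the one with the highest species mean was used. log2(FPKM + 1) was compared between species with limma 3.58.1 in R 4.3.3 (moderated variances with a trend), without a block, over 10204 genes whose mean reached 1 FPKM in either species. On simulated data of 9745 genes, 99.5% of 200 genes changed by 1.5 on the log2 scale were called, with 1 false call. The simulation used the spread between duplicates, no offset between species and no change in the other genes. The changed genes were drawn from the better expressed ones. It therefore checks the fit only and gives no error rate for the real libraries. Mouse coordinates are those of GENCODE M21 on GRCm38, the authors' build. No ferret genome was used.

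The 10 genes and the lists of 96 pathway genes and of cell type markers were chosen with earlier results of these data known. Named from each pathway list were the up to 3 called genes with the largest differences in each direction, and *Tnf*, *Il1a*, *Il1b*, *Il1rn*, *Icam1*, *Ccl2* and *Il6* in any case. *Sod2*, *Cxcl1*, *Cx3cr1*, *Mgp*, *Cldn5*, *Bcl2l1*, *Irf1*, *Slc1a2*, *Apoe*, *Aldh1l1*, *Aqp4*, *S100b*, *Sox10*, *Mbp*, *Tnfsf13b*, *Ltb* and *Cd40lg* were named after their values were seen. Ratios between genes other than those to *Rela* were also chosen after the values were seen. Alternatives were a pseudocount of 0.1, no filter, a filter at 5 FPKM, rescaling to the mean library sum or to 1000000, quantile normalization, summed values, the replicate number as a block and each library left out. The count of target genes without *Junb* was added after seeing the data.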

Additional observations from a re-analysis of the deposited data

How the results depend on the processing

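Of the 9 genes, 6 were called lower as deposited, and 3 after each of the other scalings, namely rescaling to the mean sum, rescaling to 1000000 and quantile normalization, in that order below. Among the called genes, *Vcam1* and *Tnfaip3* had passed the filter through the mouse libraries only. *Tnfrsf1a* moved to -0.74, -0.75 and -0.78, *Il1r1* to -0.76, -0.89 and -0.64, and *Nfkbia* to -0.76, -0.79 and -0.74, all short of a call. *Tnfrsf1b* turned to 0.28, 0.32 and 0.36. It also turned to 0.004 without ferret replicate 2 and 0.019 without mouse replicate 2, and leaving out each library in turn gave -0.11 to 0.019. *Nfkb2* was called with a pseudocount of 0.1, at -1.02. Across all genes, 1336 were called higher in ferret astrocytes, which became 2197 with rescaling to 1000000, 2080 with quantile normalization and 1954 with rescaling to the mean sum. The higher share of calls was 30.3% as deposited, 46.9%, 46.4% and 50.0%. Of the 107 recomputed differences of the 9 genes, 92 kept direction and call. No filter, the filter at 5 FPKM, summed values and the replicate block cannot change a difference of these genes, only its p-value. The 92 include these settings, so the count is no measure of stability. *Tnfaip3* was below the filter at 5 FPKM. The cause of these shifts beyond the offset in library sums was not tested.

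The replicate numbers come from the labels alone. Differences between replicates 1 and 2 correlated across genes between the species at 0.0099. This value cannot show whether libraries of the same number shared a preparation or a sequencing run. With the replicate block, 6 genes were called lower and 0 higher, as without it, and 3072 of all genes were lower and 1342 higher. The block is balanced between the species, so it could change p-values only and not the differences. No counting interval was computed for values under 1 FPKM, such as those of *Tnfaip3* and *Vcam1* in ferret, since read counts were not used here.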
